A study of Rattus norvegicus with 6 samples.

Results

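The proteasome genes of primary rat microglia were examined in cells stimulated with lipopolysaccharide (LPS, a bacterial outer membrane component that activates microglia). They were taken by name, as every gene called Psma, Psmb, Psmc, Psmd, Psme, Psmf or Psmg with a number, leaving out the 3 immunoproteasome subunits Psmb8, Psmb9 and Psmb10 and pseudogene names. This gave 44 of the 23139 genes listed, of which 43 had enough reads to be tested. Cells came from cortices of Wistar rats at postnatal day 1, were shaken off mixed glial cultures and were purified with magnetic beads against CD11b/c. All of them received 100 ng/mL LPS, 3 libraries with the solvent (LPS + DMSO) and 3 with 50 µM siponimod (LPS + Siponimod), a sphingosine-1-phosphate receptor modulator used in multiple sclerosis. Cells without LPS were not analysed here, and every difference below is LPS + Siponimod relative to LPS + DMSO. The replicates are described by the study as biological, while the exposure time of the sequenced cells is not given in the sources used here.

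The proteasome degrades proteins tagged with ubiquitin. Its barrel-shaped 20S core consists of outer rings of alpha subunits (Psma genes) and inner rings of beta subunits (Psmb genes), and the beta rings hold the proteolytic sites. The 19S regulatory particle, made of a ring of ATPases (Psmc genes) and of non-ATPase subunits (Psmd genes), recognises, unfolds and feeds in the substrate. Activators (Psme genes) can open the core in place of 19S, and dedicated chaperones assist assembly. In activated myeloid cells, interferons are known to exchange the catalytic beta subunits for those of the immunoproteasome, which favours the production of peptides for antigen presentation.

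Depth ranged from 38080379 to 46643859 reads counted per library, so that a single read was worth between 0.0215 and 0.0270 CPM (the unit of level used throughout, reads scaled to library size with edgeR's TMM factors). The core genes took between 59455 and 81250 reads of a library and those of the 19S particle between 78385 and 114192. All 10 microglial markers examined were detected, with Csf1r as the most abundant. Summed over this list they had 7130, 6040 and 4180 CPM in LPS + DMSO replicates 1, 2 and 3, and 3520, 4140 and 2690 CPM in LPS + Siponimod replicates 1, 2 and 3. In a bulk sample, fewer cells of a type and less RNA per cell cannot be told apart.

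LPS + DMSO replicate 3 stood apart. Its log CPM correlated with those of replicates 1 and 2 at 0.935 and 0.945, whereas replicates 1 and 2 correlated with each other at 0.983. It also held the most reads of oligodendrocyte lineage genes, with 36.0 CPM over 8 markers against 5.34 and 5.37 CPM in LPS + DMSO replicates 1 and 2 and 11.4, 10.3 and 22.6 CPM with LPS + Siponimod. In this library Olig1 (13.9 CPM), Pdgfra (7.64 CPM) and Olig2 (6.46 CPM) made up most of the sum. Mbp, the most abundant gene of the list over all libraries, went the other way, with 4.02, 4.18 and 2.26 CPM against 10.1, 8.89 and 15.9 CPM (log2 FC 1.74, edgeR's quasi-likelihood test, adjusted p = 0.0172). Neuronal markers reached 1.70, 1.04 and 11.4 CPM with LPS + DMSO and 4.37, 5.85 and 15.1 CPM with LPS + Siponimod over 6 genes, led by Tubb3. The astrocyte list had 42.5, 21.1 and 24.3 CPM against 27.6, 26.9 and 59.2 CPM (8 genes, most of it Slc1a3). Gfap, Slc1a2 and Sox9 of this list had at most 5 reads in LPS + DMSO replicates 1 and 2, and 88, 82 and 99 reads in replicate 3. With LPS + Siponimod, Gfap had 0, 0 and 1 reads, Slc1a2 4, 4 and 22, and Sox9 3, 1 and 59. Of the 8 astrocyte genes, 4 were highest in LPS + DMSO replicate 3. Slc1a3 (40.5, 20.1 and 15.5 CPM with LPS + DMSO) and Aldh1l1 (1.59, 0.545 and 0.188 CPM) were instead lowest there. The list of fibroblasts and mural cells had 6.05, 4.75 and 3.98 against 11.9, 4.64 and 8.66 CPM (6 genes). Of the latter, Dcn had 0.0810, 0 and 0.108 CPM with LPS + DMSO and 9.81, 1.10 and 4.34 CPM with LPS + Siponimod, while Col1a1 had 3.05, 2.99 and 2.40 against 1.33, 1.37 and 1.85 CPM. Endothelial markers had 154, 201 and 81.5 against 36.0, 77.8 and 24.2 CPM (3 genes listed, led by Cdh5, with Kdr at 0 in all libraries). The lymphocyte markers Cd3e and Nkg7 had no read in any library, and the list of 5 summed to 0 CPM in each LPS + DMSO library and to 0, 0.0448 and 0.0244 CPM with LPS + Siponimod. The part of these cells in the values below was not tested, and the counts of members are given with and without LPS + DMSO replicate 3.

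Of the 43 proteasome genes tested, 31 (72.1%) were lower and 12 higher by the sign of their log2 fold change (log2 FC), and the median was -0.30. Over all 11977 genes tested, 51.2% were negative and the median was -0.02. A differentially expressed gene (DEG) was defined, with the thresholds of the study, by a fold change of 1.5 or more together with an adjusted p up to 0.05, taken here from edgeR's quasi-likelihood test. By this rule 6 members fell (Psma3, Psma7, Psmb2, Psmb3, Psme1 and Psme2) and 2 rose (Psmd5 and Psmg2). These are 14.0% and 4.65% of the members tested, beside 11.7% lower and 13.6% higher DEGs among all genes. The share of lower DEGs was thus near that of all genes, and the share of higher DEGs was below it. By the adjusted p alone, 9 of the 43 members were lower and 2 of the 43 higher, beside 13.2% and 15.3% of all genes. Without LPS + DMSO replicate 3, 6 members were lower and 3 higher DEGs, against 14.5% and 15.9% of all genes. Without LPS + DMSO replicate 2 there was none (11 members lower and 2 higher at an unadjusted p under 0.05, against 14.3% and 16.3% of all genes), beside 1.44% lower and 3.72% higher DEGs among all genes. No lower DEG remained without LPS + Siponimod replicate 1 or without replicate 3 either, where 1.52% and 2.24% of all genes were lower DEGs. In each of these fits 10 members were lower at an unadjusted p under 0.05, against 13.7% and 15.7% of all genes.

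**Figure D1:**
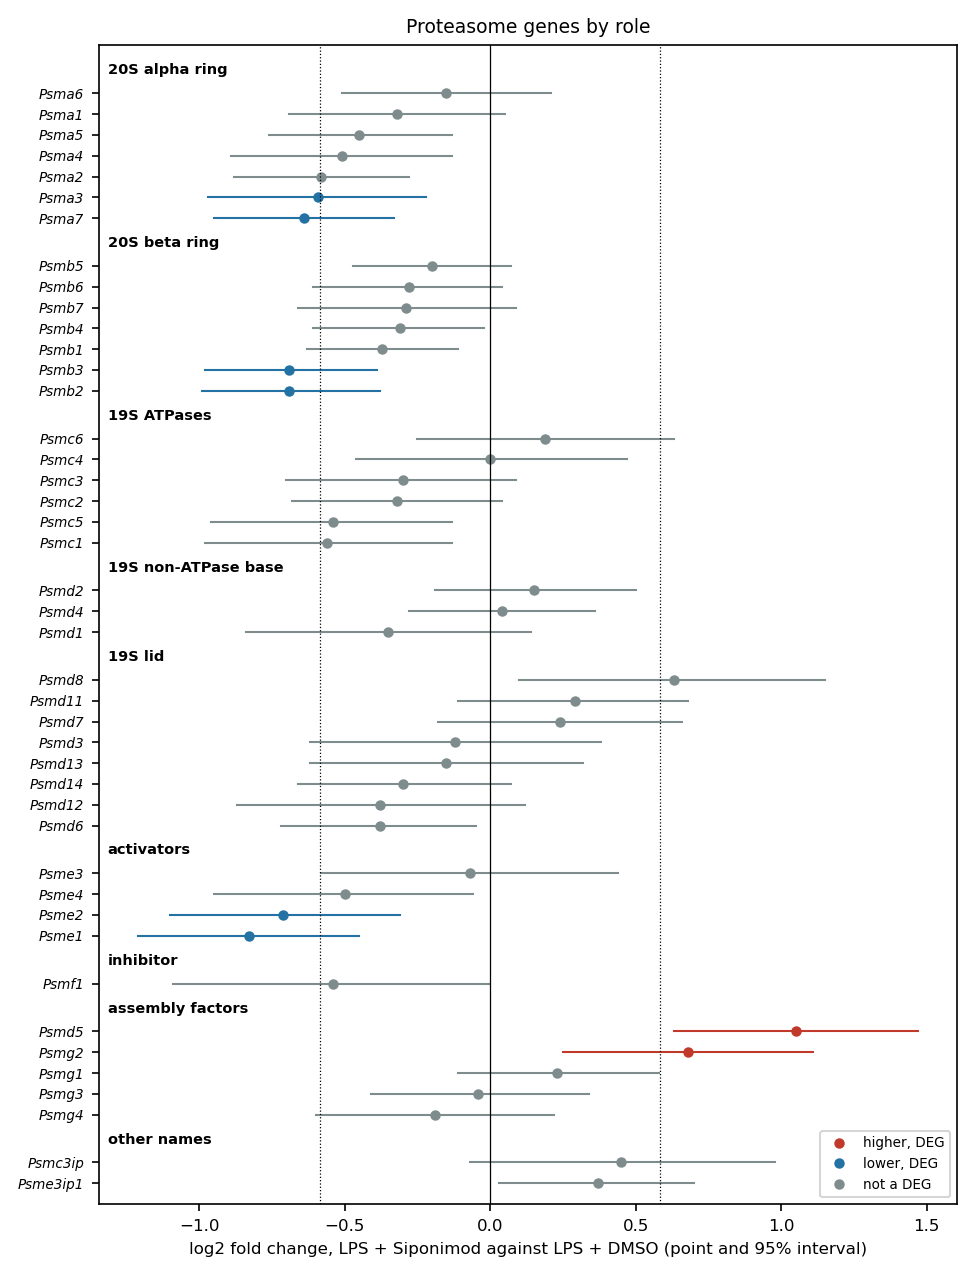
Log2 fold change of the 43 tested proteasome genes, LPS + Siponimod against LPS + DMSO (x axis; points with 95% confidence intervals, n = 3 libraries each), grouped by role, with dotted lines at a fold change of 1.5. All 14 core subunits lie left of 0, the 17 subunits of 19S found by the name rule lie on both sides, and Psmd5 lies furthest right at 1.05.

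The subunits of the 20S core shared one direction, and 4 of them (28.6%, against 11.7% of all genes) were lower DEGs and none a higher one (against 13.6%). All 14 subunits had a negative log2 FC, from -0.69 to -0.15, with medians of -0.51 for the alpha and -0.31 for the beta ring. In 12 of the 14 (85.7%) the 3 LPS + Siponimod libraries lay below the 3 LPS + DMSO libraries, which was so for 24.0% of all genes tested, the exceptions being Psma6 and Psmb7. The median difference within same-numbered pairs of libraries was -0.27, -0.37 and -0.51. Summed over the 14 subunits, the core had 1740, 1940 and 2190 CPM with LPS + DMSO and 1410, 1490 and 1450 CPM with LPS + Siponimod. LPS + DMSO replicate 3 was the highest of its group for each of the 14, and without it all 14 stayed negative, with a median of -0.35 in place of -0.41. In that fit only Psmb2 and Psmb3 of the core were lower DEGs, beside 14.5% of all genes. No core subunit was a DEG without LPS + DMSO replicate 2 or without LPS + Siponimod replicate 1 or 3. Lower DEGs were 1.44%, 1.52% and 2.24% of all genes there.

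In the alpha ring, whose N-termini form the gate of the barrel, Psma7 and Psma3 fell. Psma7 had 157, 179 and 188 CPM with LPS + DMSO and 105, 121 and 111 CPM with LPS + Siponimod (175 ± 16.2 against 112 ± 8.18, SD, n = 3; log2 FC -0.64, standard error, SE, 0.13, p adjusted by edgeR's quasi-likelihood test = 0.0185). For Psma3 the values were 218, 235 and 286 against 152, 180 and 157 CPM (log2 FC -0.59, SE 0.15, quasi-likelihood p after adjustment = 0.0349). The groups did not overlap for either gene. Without LPS + DMSO replicate 3, Psma7 (-0.58, adjusted p = 0.0262) and Psma3 (-0.47, adjusted p = 0.0453) no longer reached a fold change of 1.5, and of the 6 fits that left out 1 library they were DEGs in 2 and 1. Psma2 (-0.58, adjusted p = 0.0217), Psma5 (-0.45, adjusted p = 0.0457) and the beta subunit Psmb1 (-0.37, adjusted p = 0.0471) passed the p threshold alone and missed the fold threshold, which lies at 0.585 on the log2 scale. Psmb1 lost the p threshold with the replicate number as a block (adjusted p = 0.0611). Psma6 had the log2 FC nearest to 0, with 159, 166 and 210 against 151, 168 and 163 CPM (log2 FC -0.15, 95% confidence interval -0.51 to 0.21, and -0.01 without LPS + DMSO replicate 3), and its groups overlapped.

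In the beta ring, the structural subunits Psmb2 and Psmb3 fell. Psmb2 had 69.4, 84.6 and 85.5 CPM with LPS + DMSO against 47.5, 53.0 and 48.2 CPM (log2 FC -0.69, SE 0.13, p adjusted by edgeR's quasi-likelihood test = 0.0145). Psmb3 had 124, 133 and 147 against 78.2, 87.9 and 84.8 CPM (log2 FC -0.69, SE 0.12, quasi-likelihood p after adjustment = 0.0134). For both genes every LPS + Siponimod library lay below every LPS + DMSO library, and each was a DEG in 3 of the 6 fits that left out 1 library, that without LPS + DMSO replicate 3 included. RefSeq names 10 further loci after Psmb3, the most for any core subunit, and reads may be shared with them.

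The 3 catalytic subunits were not DEGs. Psmb5, which carries the chymotrypsin-like site, had 59.6, 65.2 and 71.5 CPM with LPS + DMSO and 58.2, 55.0 and 57.5 CPM with LPS + Siponimod (log2 FC -0.20, 95% interval -0.47 to 0.07, quasi-likelihood adjusted p = 0.209). Psmb6, with the caspase-like site, had 93.8, 111 and 121 against 93.2, 90.2 and 85.1 CPM (log2 FC -0.28, interval -0.61 to 0.04). Psmb7, with the trypsin-like site, had 119, 130 and 163 against 113, 105 and 119 CPM (log2 FC -0.29, interval -0.66 to 0.09). LPS + DMSO replicate 1 was almost level with its LPS + Siponimod partner for all 3, the within-pair differences being -0.03, -0.01 and -0.06 on the log2 scale. Without LPS + DMSO replicate 3, the log2 FC of Psmb5, Psmb6 and Psmb7 was -0.13, -0.19 and -0.14. None of the 3 intervals reached a rise of 1.5-fold, while those of Psmb6 and Psmb7 extended past a fall of that size.

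**Figure D2:**
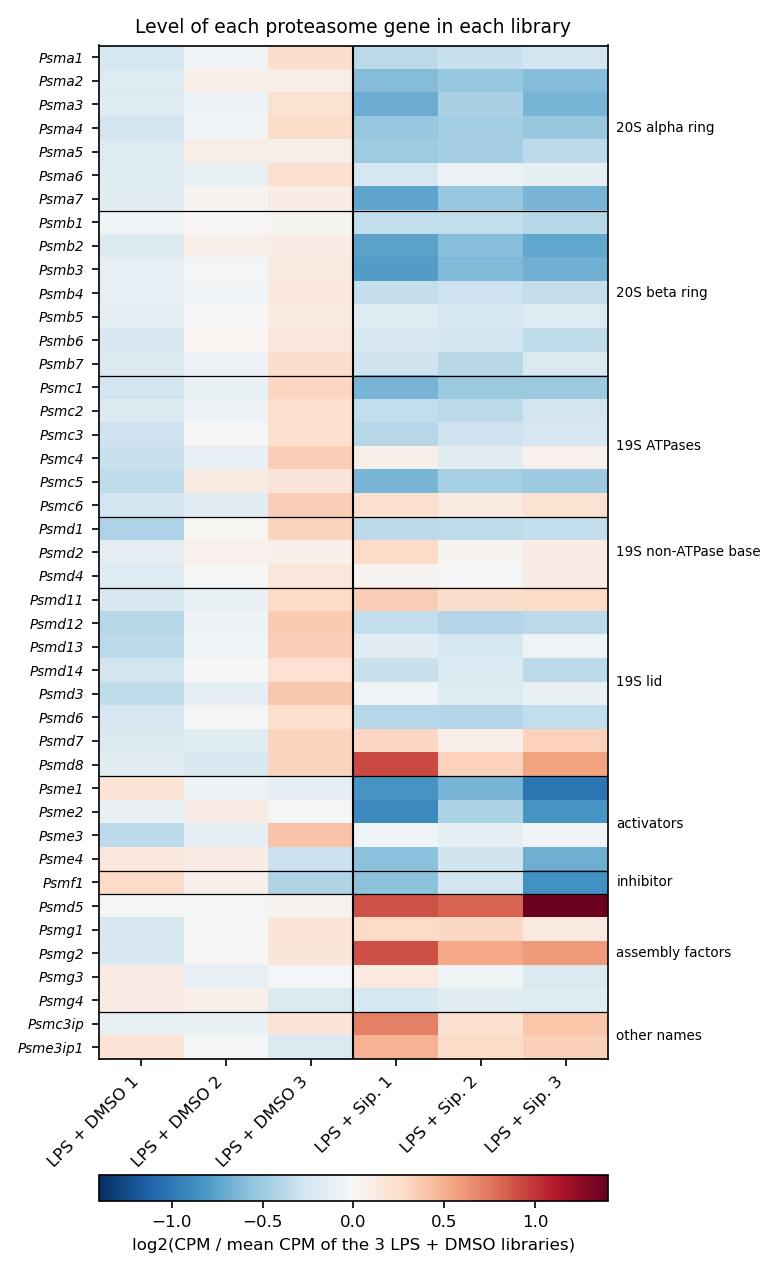
Level of each tested proteasome gene (rows) in each of the 6 libraries (columns), as log2 of its CPM over the mean CPM of the 3 LPS + DMSO libraries. The core genes are lower (blue) in all 3 LPS + Siponimod columns, and LPS + DMSO replicate 3 is the highest of its group for all 14 core and all 17 regulatory particle genes.

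Promoter sequences, taken from RefSeq (build GRCr8), are shown for Psmb2, Psmb3, Psme1, Psme2 and Psmd5, which fell or rose. The counts were made on another build, and positions refer to GRCr8 only. Windows from 250 bases before to 50 after the annotated start were searched on both strands for TGACNNNGC, the core of the antioxidant response element that NFE2L1 and NFE2L2 can bind, for an interferon-stimulated response element (GAAA, any 2 bases, GAAA), and for TGATGNAA, an amino acid response element of the ATF4 type. No 2 matches in these genes overlapped. Of 27457 promoters, 12.2%, 3.77% and 3.82% held the 3 motifs. Windows were found for 40 of the 44 members, 7 of which held the first, 5 the second and 2 the third motif. In the core, 4 of 13 (30.8%) held the antioxidant element (Psma3, Psmb2, Psmb5 and Psmb6), which includes members that fell and members that were not DEGs. The interferon and the amino acid element were each held by 2 of the 13 (15.4%), against 3.77% and 3.82% of all promoters. A match is a description of the letters and not evidence of binding. The 250 bases before the start of Psmb2 (chr5:144254808-144255057, plus strand) and Psmb3 (chr10:83193537-83193786, plus strand) follow, with matches in capitals. In Psmb2 the antioxidant element begins 68 bases and the amino acid element 48 bases before the start, and in Psmb3 an interferon element begins 143 bases before it.
Psmb2: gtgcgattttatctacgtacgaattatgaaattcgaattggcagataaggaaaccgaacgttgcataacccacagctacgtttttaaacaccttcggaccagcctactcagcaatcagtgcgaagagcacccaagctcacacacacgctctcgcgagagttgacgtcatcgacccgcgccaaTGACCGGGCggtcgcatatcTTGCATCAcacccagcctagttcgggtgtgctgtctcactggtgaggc
Psmb3: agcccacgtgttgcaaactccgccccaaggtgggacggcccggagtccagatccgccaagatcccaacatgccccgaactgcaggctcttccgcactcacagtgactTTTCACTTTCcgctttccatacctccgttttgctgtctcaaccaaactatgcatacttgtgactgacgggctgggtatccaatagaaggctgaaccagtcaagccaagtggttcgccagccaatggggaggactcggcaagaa

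The 19S regulatory particle held both directions. Of the 17 subunits found by the name rule, 10 were negative and 7 positive in log2 FC, from -0.56 to 0.63, and the median was -0.15. None of the 17 was a DEG by edgeR's quasi-likelihood test, by its likelihood ratio test or by limma-voom, while DESeq2 called Psmd8 higher. Sem1, a lid subunit named outside the rule, is not among them and was a lower DEG, as given below. At an unadjusted p under 0.05 the quasi-likelihood test had 3 of the 17 lower and 1 higher, against 21.7% and 22.0% of all genes. The groups did not overlap in 4 lower genes and 1 higher gene of the 17, against 24.0% and 25.3% of all genes. Within pairs the median was 0.22, -0.19 and -0.46. LPS + DMSO replicate 3 was the highest of its group for all 17, and without it 8 were negative and the median was 0.06. The summed level was 2120, 2480 and 3040 CPM with LPS + DMSO and 2460, 2290 and 2410 CPM with LPS + Siponimod, so that the LPS + DMSO libraries spanned the others. The difference between core and 19S was not tested.

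Among the ATPases, Psmc1 was the lowest, with 193, 218 and 285 CPM against 148, 162 and 162 CPM (log2 FC -0.56, SE 0.17, p adjusted by edgeR's quasi-likelihood test = 0.0566). With the replicate number as a block, Psmc1 (adjusted p = 0.0411) and Psmc5 (adjusted p = 0.0336) passed the p threshold but not the fold threshold, and Psmc5 was a lower DEG without LPS + DMSO replicate 1. Psmc6 was the highest, with 62.1, 67.6 and 95.3 against 87.8, 81.7 and 86.8 CPM (log2 FC 0.19, interval -0.25 to 0.63), and was at 0.40 without LPS + DMSO replicate 3 (adjusted p = 0.0412, fold change under 1.5) and at 0.09 without LPS + DMSO replicate 1 (adjusted p = 0.746). In the non-ATPase base, Psmd1, a scaffold, had 185, 255 and 310 CPM with LPS + DMSO and 194, 196 and 197 CPM with LPS + Siponimod (log2 FC -0.35, interval -0.84 to 0.14). The LPS + Siponimod values of Psmd1 were almost equal, and its spread came from LPS + DMSO. Its log2 FC was -0.17 without LPS + DMSO replicate 3. Psmd2, the other large scaffold, had 338, 388 and 393 against 453, 384 and 405 CPM (log2 FC 0.15, interval -0.19 to 0.50). The ubiquitin receptor Psmd4 had 111, 126 and 141 against 129, 124 and 135 CPM (log2 FC 0.04, interval -0.28 to 0.36).

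In the lid, the deubiquitinase Psmd14, which removes ubiquitin chains from bound substrates, had 97.8, 118 and 136 CPM with LPS + DMSO and 94.3, 102 and 90.9 CPM with LPS + Siponimod (log2 FC -0.30, interval -0.66 to 0.07, and -0.17 without LPS + DMSO replicate 3). Psmd6 was the lowest of the lid, with 58.7, 67.7 and 80.4 against 52.1, 52.0 and 54.3 CPM (log2 FC -0.38, SE 0.14, quasi-likelihood p after adjustment = 0.0844). The highest was Psmd8, with 87.0, 82.7 and 119 against 183, 120 and 142 CPM. All 3 LPS + Siponimod libraries lay above LPS + DMSO for Psmd8, in replicate 2 only just above LPS + DMSO replicate 3. Its log2 FC of 0.63 (SE 0.22) missed the threshold (quasi-likelihood adjusted p = 0.0747), and passed it without LPS + DMSO replicate 3 (0.81, adjusted p = 0.0344) and with DESeq2 (adjusted p = 0.0344). In the other 5 fits that left out 1 library it lay between 0.44 (adjusted p = 0.230, without LPS + Siponimod replicate 1) and 0.75 (adjusted p = 0.0656, without LPS + Siponimod replicate 2).

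Both subunits of the interferon-inducible activator PA28 fell. Psme1, its alpha subunit, had 228, 190 and 182 CPM with LPS + DMSO and 113, 127 and 98.3 CPM with LPS + Siponimod (200 ± 24.6 against 113 ± 14.3, SD, n = 3; log2 FC -0.83, SE 0.16, p adjusted by edgeR's quasi-likelihood test = 0.0157), the lowest log2 FC of all 43 members. Psme2, the beta subunit, had 274, 315 and 291 against 158, 215 and 166 CPM (log2 FC -0.71, SE 0.16, quasi-likelihood p after adjustment = 0.0257). The groups were separate for both genes, which were lower in each of the 3 pairs. Psme1 was a DEG in 3 and Psme2 in 2 of the 6 fits that left out 1 library, that without LPS + DMSO replicate 3 included. A pseudogene listed as Psme1-ps1 had at most 55 reads in a library, and RefSeq names further copies of both genes, with which reads may be shared. Psme1 also overlaps Emc9 there, and the use of strand in counting is not given in the sources used here.

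Psme3 and Psme4, the other activators, were not DEGs. Psme3, the nuclear PA28 gamma, had 101, 119 and 172 CPM against 125, 120 and 127 CPM (log2 FC -0.07, interval -0.58 to 0.44), and its log2 FC was 0.18 without LPS + DMSO replicate 3. Psme4, which encodes PA200, had 255, 247 and 186 against 154, 189 and 143 CPM (log2 FC -0.50, SE 0.18, quasi-likelihood p after adjustment = 0.0850). For Psmf1, which encodes the proteasome regulator PI31, the values were 82.5, 72.2 and 51.5 against 46.3, 57.0 and 38.3 CPM (log2 FC -0.54, SE 0.23, quasi-likelihood p after adjustment = 0.116). LPS + DMSO replicate 3 was the lowest of its group for both Psme4 and Psmf1, opposite to the core, and both were DEGs without it (log2 FC -0.63, adjusted p = 0.0335, and -0.71, adjusted p = 0.0370). Without LPS + DMSO replicate 1, in contrast, Psme4 was at -0.41 (adjusted p = 0.214) and Psmf1 at -0.38 (adjusted p = 0.303). With the replicate number as a block, Psme4 (adjusted p = 0.0431) and Psmf1 (adjusted p = 0.0388) passed the p threshold, but not the fold threshold.

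The sequences before the starts of Psme1 (chr15:33038721-33038970, plus strand) and Psme2 (chr15:33052752-33053001, minus strand) are set side by side because the genes fell together. An interferon element begins 53 bases before the start of Psme2 (capitals), and no match of the 3 motifs lies in the window of Psme1.
Psme1: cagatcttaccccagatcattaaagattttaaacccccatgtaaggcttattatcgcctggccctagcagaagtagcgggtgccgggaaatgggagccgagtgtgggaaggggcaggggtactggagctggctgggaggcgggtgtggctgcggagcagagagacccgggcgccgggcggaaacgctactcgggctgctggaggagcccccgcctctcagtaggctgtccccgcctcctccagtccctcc
Psme2: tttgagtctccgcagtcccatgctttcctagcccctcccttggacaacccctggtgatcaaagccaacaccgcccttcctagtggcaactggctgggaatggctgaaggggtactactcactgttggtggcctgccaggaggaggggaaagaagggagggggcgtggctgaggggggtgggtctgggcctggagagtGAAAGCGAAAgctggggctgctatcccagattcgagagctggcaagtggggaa

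Assembly factors included the members that rose. Psmd5, a chaperone of the ATPase ring that is not part of the mature proteasome, had 40.1, 40.3 and 42.4 CPM with LPS + DMSO and 76.1, 72.1 and 106 CPM with LPS + Siponimod. This was a log2 FC of 1.05 (standard error 0.17, 2.07-fold, edgeR's quasi-likelihood test, adjusted p = 0.0112), the highest of all members. The LPS + DMSO values were nearly equal and all lay below those of LPS + Siponimod, and the within-pair differences were 0.92, 0.84 and 1.33. Psmd5 was a DEG in 5 of the 6 fits that left out 1 library, the exception being LPS + DMSO replicate 2 (log2 FC 1.06, adjusted p = 0.0594). In RefSeq Psmd5 overlaps Cutal, whose reads could not be set apart here. Psmg2, which pairs with Psmg1 in a chaperone of the alpha ring, had 8.47, 10.0 and 11.1 against 18.4, 14.3 and 14.9 CPM (log2 FC 0.68, SE 0.18, quasi-likelihood p after adjustment = 0.0347). Its groups did not overlap either, but it was a DEG in only 1 of the same 6 fits, that without LPS + DMSO replicate 3. Its partner Psmg1 had a log2 FC of 0.23 (interval -0.11 to 0.58). Psmg4 was the lowest of the assembly factors, with 7.58, 7.40 and 6.08 against 5.94, 6.32 and 6.22 CPM (log2 FC -0.19, interval -0.60 to 0.22), and Psmg3 had a log2 FC of -0.04 (interval -0.41 to 0.34).

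The 250 bases before the start of Psmd5 (chr3:38548491-38548740, minus strand), the member with the highest log2 FC, held none of the 3 motifs.
Psmd5: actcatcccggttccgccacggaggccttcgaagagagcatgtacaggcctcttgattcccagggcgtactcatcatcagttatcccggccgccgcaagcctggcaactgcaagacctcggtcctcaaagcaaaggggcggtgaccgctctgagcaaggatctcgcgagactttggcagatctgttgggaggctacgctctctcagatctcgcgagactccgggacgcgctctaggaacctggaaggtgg

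**Figure D3:**
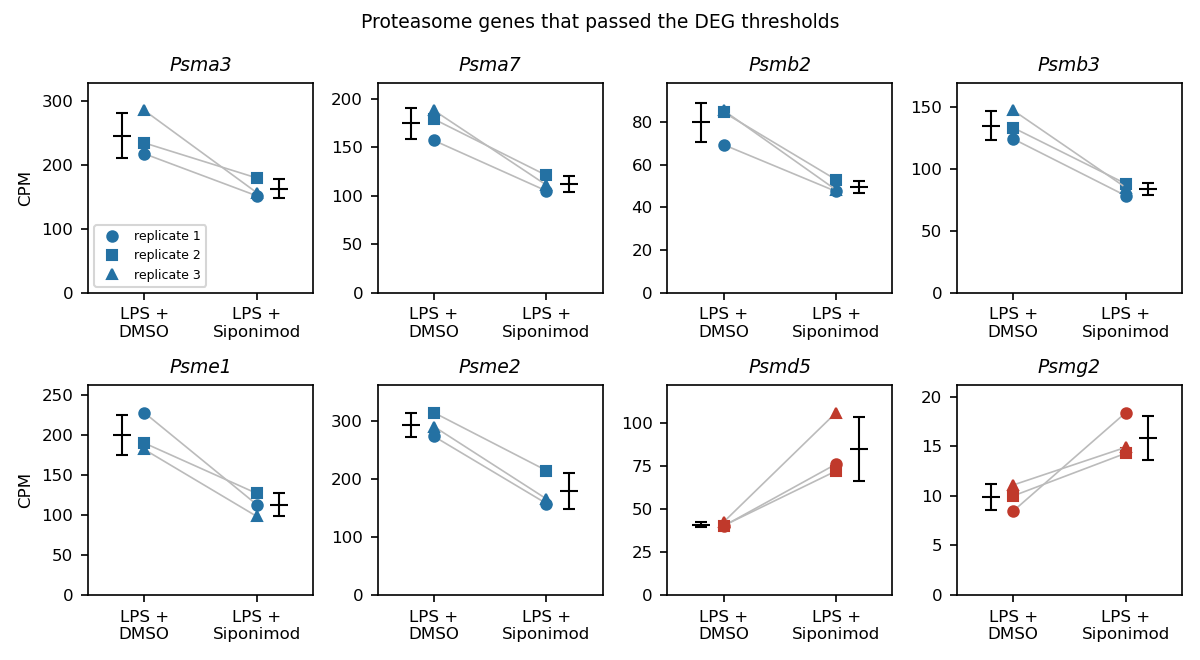
CPM of the 8 proteasome DEGs in each library (points, with lines joining same-numbered replicates; bars are mean ± SD of n = 3, axes start at 0). LPS + Siponimod lies below LPS + DMSO in every pair for Psma3, Psma7, Psmb2, Psmb3, Psme1 and Psme2, and above it for Psmd5 and Psmg2.

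The name rule also found 3 genes that are not constitutive subunits. Psma8, a testis-specific alpha subunit, had 0, 0 and 2 reads with LPS + DMSO and 4, 0 and 0 with LPS + Siponimod, was removed by the filter on low counts and is given no fold change. Psmc3ip, a factor of meiotic recombination, and Psme3ip1, which encodes a binding partner of PA28 gamma, were at 0.45 (adjusted p = 0.158) and 0.37 (adjusted p = 0.0951) on the log2 scale by the quasi-likelihood test.

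The immunoproteasome subunits, which replace the catalytic subunits one for one, are set beside their constitutive counterparts. Psmb8 had 215, 152 and 240 CPM with LPS + DMSO and 93.1, 81.1 and 128 CPM with LPS + Siponimod (log2 FC -1.01, edgeR's quasi-likelihood test, adjusted p = 0.0296). Psmb9 had 159, 148 and 97.9 against 49.2, 78.3 and 45.9 CPM (log2 FC -1.22, quasi-likelihood adjusted p = 0.0257), and Psmb10 had 118, 125 and 65.1 against 50.9, 77.7 and 57.6 CPM (log2 FC -0.73, quasi-likelihood adjusted p = 0.106). Psmb8 and Psmb9 fell, and the groups overlapped for Psmb10, which was a DEG without LPS + DMSO replicate 3 (-0.97, adjusted p = 0.0221) and in none of the other 5 fits that left out 1 library (-0.55 to -0.93, adjusted p = 0.0939 to 0.309). Of the 6 fits that left out 1 library, Psmb8 was a DEG in 1 only, that without LPS + Siponimod replicate 3 (adjusted p = 0.0476, in the others 0.0531 to 0.116). Psmb9 was a DEG in 2, those without LPS + DMSO replicate 3 and without LPS + Siponimod replicate 2 (in the others 0.0764 to 0.114).

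A ratio of reads within a library does not depend on the scaling between libraries. Psmb8 over Psmb5 was 3.61, 2.33 and 3.36 with LPS + DMSO and 1.60, 1.47 and 2.23 with LPS + Siponimod, 1.75-fold lower, with no overlap (exact permutation test, two-sided, p = 0.10, the smallest that 3 against 3 allows; 0.30 after Benjamini-Hochberg adjustment over 3 ratios). Psmb9 over Psmb6 was 1.69, 1.33 and 0.806 against 0.527, 0.868 and 0.540 (exact p = 0.20, adjusted 0.30). For Psmb10 over Psmb7, 0.996, 0.959 and 0.399 stood against 0.449, 0.738 and 0.485 (exact p = 0.40). The first 2 ratios were lower in each of the 3 pairs, and the third in pairs 1 and 2 only, where LPS + DMSO replicate 3 had the lowest ratio of all libraries. These ratios compare reads and not subunits, since gene length was not taken into account, and none passed its test.

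**Figure D4:**
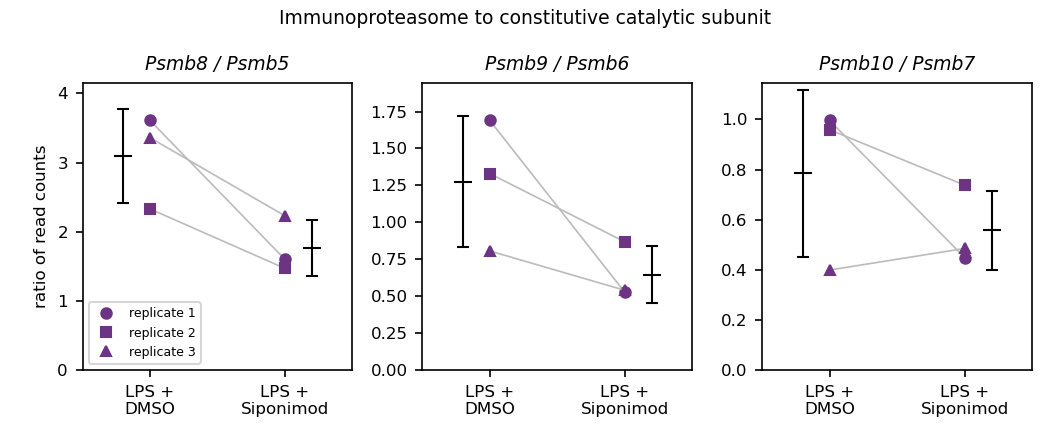
Ratio of read counts of each immunoproteasome subunit to its constitutive counterpart in each library (points, with lines joining same-numbered replicates; bars are mean ± SD of n = 3). Psmb8 / Psmb5 is lower in LPS + Siponimod without overlap, whereas the groups overlap for the other 2 ratios.

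Other genes that build, guide or control the proteasome were taken from a list of 41, of which 38 were found and tested. On this list 10 genes were higher DEGs (26.3%, against 13.6% of all genes) and 5 lower DEGs (13.2%, against 11.7%), and the median log2 FC was 0.11. The list was chosen with earlier results of these data known, so these shares describe it and are no test of enrichment. Psmb8 and Psmb9 are among the 5, and without the immunoproteasome 3 of 35 (8.57%) were lower DEGs. Without LPS + Siponimod replicate 1, only Nfe2l1, Zfand2a and Zfand5 of the higher and Pomp and Uba1 of the lower ones remained DEGs. Of all genes, 4.70% were higher and 1.52% lower DEGs in that fit. Pomp, the maturation factor on which core assembly depends, fell from 113, 126 and 124 CPM with LPS + DMSO to 62.8, 73.4 and 63.9 CPM with LPS + Siponimod (log2 FC -0.86, SE 0.12, p adjusted by edgeR's quasi-likelihood test = 0.00805). It was a DEG in all 6 fits that left out 1 library, with adjusted p-values up to 0.0474. Sem1, a small lid subunit whose name lies outside the rule, fell as well, with 53.1, 58.8 and 64.9 against 37.2, 39.9 and 39.2 CPM (log2 FC -0.60, SE 0.11, quasi-likelihood p after adjustment = 0.0158), and it was no DEG without LPS + DMSO replicate 2 or 3 or without LPS + Siponimod replicate 1 or 3. Other proteins bound to 19S were not DEGs, namely the ubiquitin receptor Adrm1 (97.3, 102 and 131 against 144, 121 and 141 CPM, log2 FC 0.30, interval -0.09 to 0.68) and the deubiquitinase Usp14 (70.1, 85.2 and 108 against 69.2, 68.9 and 73.1 CPM, log2 FC -0.32, interval -0.74 to 0.10). Akirin2, needed for nuclear import of proteasomes, rose by 0.88 on the log2 scale (quasi-likelihood adjusted p = 0.0211), and was a DEG in 2 of the same 6 fits.

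Of 7 genes that control proteasome transcription, 4 rose, against 13.6% of all genes, and 3 (Ddi2, Ngly1 and Keap1) were not DEGs. These 7 belong to the same list, so this share too is only a description. Nfe2l1, which encodes the transcription factor that induces proteasome genes when proteasome activity is short, had 251, 249 and 231 CPM with LPS + DMSO and 587, 543 and 485 CPM with LPS + Siponimod (log2 FC 1.14, SE 0.14, p adjusted by edgeR's quasi-likelihood test = 0.00692). The groups were far apart, and Nfe2l1 was a DEG in all 6 fits that left out 1 library. Nfe2l2, the related factor of the antioxidant response, had 134, 103 and 109 against 224, 178 and 181 CPM (log2 FC 0.75, SE 0.16, quasi-likelihood p after adjustment = 0.0223). Their dimer partners Maff (log2 FC 3.47, adjusted p = 0.0190) and Mafg (0.73, adjusted p = 0.0139) rose too. Maff had 18.3, 5.97 and 41.0 CPM with LPS + DMSO and 271, 158 and 294 CPM with LPS + Siponimod, and its log2 FC ranged from 3.04 (without LPS + DMSO replicate 2) to 4.31 (without LPS + DMSO replicate 3). Nfe2l2, Maff and Mafg were each a DEG in 3 of the 6 fits that left out 1 library. Nfe2l2 and Mafg were lost without LPS + DMSO replicate 2 and without LPS + Siponimod replicate 1 or 3, and Maff without LPS + DMSO replicate 1 and without LPS + Siponimod replicate 1 or 3, with adjusted p-values between 0.0573 and 0.0955. The activity of these factors was not measured.

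After Maff, the highest log2 FC on the list was that of Zfand2a, an arsenite-inducible gene whose product binds the proteasome. It rose from 95.1, 77.9 and 103 CPM to 669, 402 and 574 CPM (log2 FC 2.58, SE 0.24, p adjusted by edgeR's quasi-likelihood test = 0.00457). Zfand5, which encodes a related zinc finger protein that stimulates 26S proteasomes, had 72.0, 56.7 and 71.7 against 278, 165 and 263 CPM (log2 FC 1.82, SE 0.24, quasi-likelihood p after adjustment = 0.00733). Both remained DEGs whichever library was left out. The shuttle factors Ubqln2 (log2 FC 1.09) and Ubqln4 (0.60) and the p97 cofactor Ubxn4 (1.19) rose, but were DEGs in only 2, 1 and 2 of the 6 fits that left out 1 library. Vcp, which encodes p97 itself, had a log2 FC of 0.02 (interval -0.35 to 0.39). Uba1, the main enzyme that activates ubiquitin, fell from 459, 520 and 461 CPM to 195, 243 and 240 CPM (log2 FC -1.09, SE 0.15, quasi-likelihood p after adjustment = 0.00817). The polyubiquitin gene Ubb (log2 FC 0.53, quasi-likelihood adjusted p = 0.0901) did not pass.

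**Figure D5:**
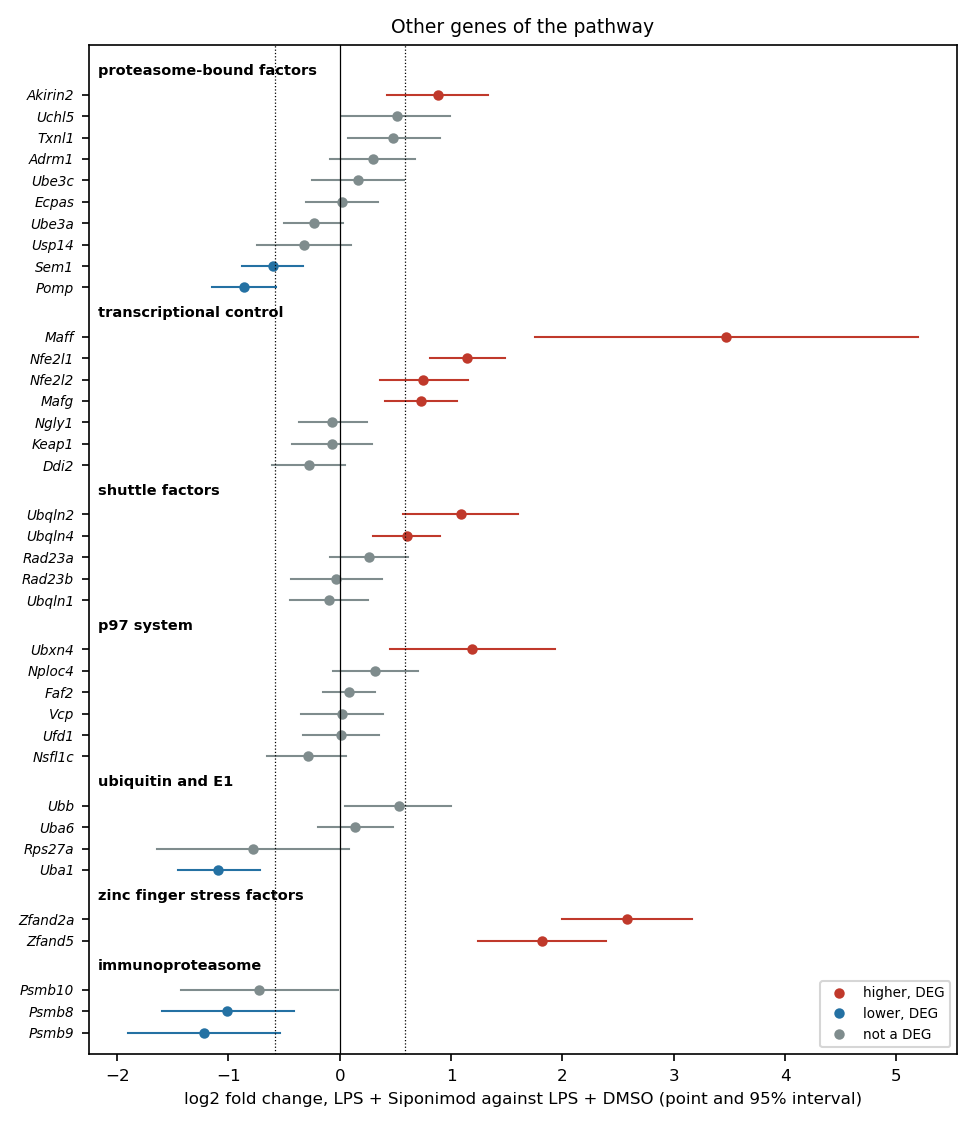
Log2 fold change of other genes of the proteasome pathway (points with 95% confidence intervals, n = 3 libraries each), grouped by function, with dotted lines at a fold change of 1.5. Maff at 3.47, Zfand2a at 2.58 and Zfand5 at 1.82 lie furthest right, and Psmb9 at -1.22 and Uba1 at -1.09 furthest left.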

How the data were processed

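Per the labels and the study's methods, polyA-selected mRNA was sequenced as single 150-base reads, demultiplexed with bcl2fastq (version 2.20.0.422) and mapped to the rat genome (mRatBN7.2) in the CLC Genomics Workbench. The authors deposited total read counts per gene for each of 6 libraries, without normalization. The treatment of reads matching more than 1 gene and the use of strand are not given in the sources used here, and RefSeq names 52 copies or pseudogenes after 19 of the 44 members, while 15 members overlap another gene (Psmd5 overlaps Cutal, and Psme1 overlaps Emc9), so that their counts are uncertain. In 1 table, 1 row without a name and with no counts was left out.

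The analysis of these counts used edgeR (version 4.0.16) under R (version 4.3.3). Genes were kept by filterByExpr (minimum count 10, minimum total 15), which left 11977 of 23139, normalized by TMM and tested with glmQLFit and glmQLFTest on a design with 1 factor, the condition, and Benjamini-Hochberg adjustment over all genes tested. Within-pair values are differences of log2 CPM with 2 counts added. Scaling by TMM or by RLE factors put the all-gene median at -0.021 or -0.018. Alternatives were RLE factors, DESeq2 (version 1.42.0), limma-voom (limma version 3.58.1), the likelihood ratio test, other filters, the replicate number as a block, and each library left out. The procedure was tested on simulated data.

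Same-numbered libraries deviated together (correlation over genes of deviations from the group means 0.420, 0.545 and 0.611, against -0.534 to 0.086 for other combinations), which is a hint from the data and not from the labels. The main test and the exact tests of ratios were unpaired, and the pairing was used only for the block and for the within-pair differences.

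Members and lists were chosen with earlier results of these data known. Named with values in each library were all member DEGs, the highest and lowest log2 FC per role, the catalytic subunits, Psme1 to Psme4, Psmf1, Psmd4, Psmd14, and of the pathway list Psmb8 to Psmb10, Pomp, Adrm1, Usp14, Nfe2l1, Nfe2l2 and the 3 smallest p-values per direction. Other DEGs are named by their log2 FC (Maff also with its levels, added later). Psma2, Psma5, Psmb1, Psmc5, Psmg1, Psmg3, Vcp, Ubb, Ddi2, Ngly1 and Keap1 were added after their values were seen. Of the pathway list, 1 gene is counted but not reported here. Gene length was not used, so that levels of members are not compared between genes. The most abundant gene of a marker list is the one with the highest CPM, also without regard to length. Standard errors were derived from the log2 FC and the F statistic of the quasi-likelihood test. Intervals are 95% confidence intervals of the log2 FC built from these standard errors, and rest on the variation between these libraries only.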

Additional observations from a re-analysis of the deposited data

How the results depend on the processing

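The calls of single proteasome genes depended on which libraries were used, and the direction of the core did not. All 14 core subunits had a negative log2 FC under RLE factors, DESeq2, limma-voom, the likelihood ratio test, both other filters, the replicate block and all 6 fits on 5 libraries. These fits share all or most of their libraries and are not independent of the main fit. The 8 member DEGs were the same under RLE factors, limma-voom, the likelihood ratio test, a mean of at least 1 CPM and the replicate block, which gave 2 higher and 6 lower members and 2114 higher and 1960 lower genes in all (1633 and 1403 without the block). The block changed no DEG call of a member. DESeq2 kept the 8 and added Psmd8, beside 16.5% higher and 16.1% lower DEGs among all genes. With no filter on low counts 1 member was higher (Psmg2 had a quasi-likelihood adjusted p of 0.0513) and 7 were lower, Psma2 being added. Among all 17057 genes tested without the filter, 8.38% were higher and 6.53% lower DEGs. With single libraries left out, between 0 and 3 members were higher and between 0 and 7 lower DEGs, and over all genes between 469 and 1941 higher and between 182 and 1772 lower DEGs. The lowest of these 4 counts came without LPS + DMSO replicate 2 (lower members: also without LPS + Siponimod replicate 1 or 3). The highest came mostly without LPS + DMSO replicate 3 (lower members: without LPS + DMSO replicate 1 or without LPS + Siponimod replicate 2). Psme3 ranged from -0.21 to 0.18 and Psmd4 from -0.03 to 0.13 in these fits, the median of the lid from -0.27 to 0.09 and that of the non-ATPase base from -0.03 to 0.13. Of the 8 members, Psmd5 was a DEG in 5 of these 6 fits, Psmb2, Psmb3 and Psme1 in 3, Psma7 and Psme2 in 2, and Psma3 and Psmg2 in 1. Of the other genes named as DEGs, Pomp, Nfe2l1, Zfand2a, Zfand5 and Uba1 were DEGs in all 6 fits, Nfe2l2, Mafg and Maff in 3, Psmb9, Sem1, Akirin2, Ubqln2 and Ubxn4 in 2, and Psmb8 and Ubqln4 in 1. The cause was not tested. With 3 libraries per condition, an exact test of a single ratio could not go below 0.10.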
